A study of Mus musculus with 191 samples.

Results

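The effect of benzene on the mouse lung was read from 4 arrays, 1 for each mouse given benzene, in a series of lung RNA that holds 133 arrays of mice exposed to 26 chemicals and 58 arrays of their controls. The arrays were chosen by their labelled code BENZ and set against the 8 arrays of the corn oil control sets CCO2 and CCO3, which share their vehicle and the batch code of their array titles. All of these animals were B6C3F1 females, from the hybrid cross that many rodent carcinogenicity studies use, and were labelled as 18 weeks old when the lungs were taken after 13 weeks of dosing. The BENZ mice (n = 4) received benzene at 100 mg/kg by gavage on 5 days per week in corn oil at 5 ml/kg. The COUM mice (n = 4) received coumarin at 200 mg/kg and the DBET mice (n = 4) received 1,2-dibromoethane at 62 mg/kg on the same schedule, with the same vehicle and batch code. The CCO2 and CCO3 mice (n = 4 each) received corn oil alone at 5 ml/kg by the same route. The labels do not tie either control set to a chemical, so each gene was set against both.

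Benzene is oxidised by cytochrome P450 enzymes, mainly CYP2E1 and in mouse lung also CYP2F2, to benzene oxide. Microsomal epoxide hydrolase, the product of Ephx1, adds water to such epoxides, and other branches lead to phenol, hydroquinone and reactive quinones, which NQO1 can reduce. Benzene is known as a bone marrow toxicant and, in mouse bioassays, as a cause of lung tumours, and its metabolites can damage DNA, which activates the transcription factor p53.

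Expression values are given as deposited, on a log scale taken as base 2 because the labels do not state the base, so every fold rests on that base. A difference is the log2 fold change of the BENZ arrays against the equal-weight mean of CCO2 and CCO3, with its standard error (SE). A call needed an adjusted p under 0.05 (limma, Benjamini-Hochberg) in 1 direction against CCO2 and likewise against CCO3. Of 13524 genes tested 4 rose by this rule (0.0296%) and 0 fell (0%). At an unadjusted p under 0.05 against the mean of both sets, limma gave 1501 genes higher in BENZ (11.1%) and 314 lower (2.32%), and the median log2 fold change over all genes tested was 0.04.

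The 4 genes that rose were Dglucy, Ephx1, Phlda3 and Ces2e and Dglucy had by far the smallest adjusted p. Dglucy encodes D-glutamate cyclase, a mitochondrial enzyme that turns D-glutamate into 5-oxo-D-proline. Phlda3 is a p53 target whose product competes with the kinase AKT for membrane lipids, and Ces2e encodes a carboxylesterase, an enzyme class that splits esters. The promoters of these genes are shown because the 4 genes passed the same rule. The windows are RefSeq windows of 300 bases on build GRCm38.p6, 5′ to 3′ on the gene's strand. Each window runs from 250 bases before to 50 bases after the annotated start. Capitals mark the motifs found.
Dglucy promoter, chr12:100778807-100779106, plus strand: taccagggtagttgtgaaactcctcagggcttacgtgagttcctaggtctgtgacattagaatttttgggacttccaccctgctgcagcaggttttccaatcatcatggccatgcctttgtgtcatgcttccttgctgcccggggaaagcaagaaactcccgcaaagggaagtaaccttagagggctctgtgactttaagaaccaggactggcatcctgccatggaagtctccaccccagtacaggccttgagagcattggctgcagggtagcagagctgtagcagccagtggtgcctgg
Ephx1 promoter, chr1:181017520-181017819, minus strand: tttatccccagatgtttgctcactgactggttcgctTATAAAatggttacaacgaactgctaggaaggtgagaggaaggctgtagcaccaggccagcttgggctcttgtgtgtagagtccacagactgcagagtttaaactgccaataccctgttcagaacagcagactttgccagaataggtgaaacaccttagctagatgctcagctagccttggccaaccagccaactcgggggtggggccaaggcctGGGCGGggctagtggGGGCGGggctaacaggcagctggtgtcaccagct
Phlda3 promoter, chr1:135765835-135766134, plus strand: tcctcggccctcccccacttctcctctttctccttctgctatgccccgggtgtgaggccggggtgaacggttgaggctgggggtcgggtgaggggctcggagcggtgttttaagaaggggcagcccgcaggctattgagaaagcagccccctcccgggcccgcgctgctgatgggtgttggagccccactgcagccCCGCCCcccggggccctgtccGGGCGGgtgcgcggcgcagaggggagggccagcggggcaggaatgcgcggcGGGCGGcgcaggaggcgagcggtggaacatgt
Ces2e promoter, chr8:104926010-104926309, plus strand: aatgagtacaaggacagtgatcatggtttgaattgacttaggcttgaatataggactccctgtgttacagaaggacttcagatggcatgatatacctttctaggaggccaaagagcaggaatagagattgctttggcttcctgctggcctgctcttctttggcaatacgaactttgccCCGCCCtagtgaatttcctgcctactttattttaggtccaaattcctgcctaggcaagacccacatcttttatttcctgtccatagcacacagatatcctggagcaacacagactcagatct

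Both strands of these windows were searched for 5 motifs. The p53 consensus half-site, held by 8.36% of 32851 mouse promoter windows of the same length, was in none of the 4. The core of the antioxidant response element, TGACNNNGC, held by 12.4% of windows, and the E-box CACGTG, held by 7.15%, were also in none. The GC box GGGCGG, held by 35.7% of windows, occurred 2 times in the Ephx1 window, 3 times in the Phlda3 window and 1 time in the Ces2e window, and TATAAA, held by 13.6%, occurred 1 time in the Ephx1 window. The Phlda3 window had the highest G and C content of the 4, 71.7% with 26 CG pairs, beside 53% with 3 CG pairs for Dglucy, 54.3% with 5 for Ephx1 and 44.7% with 2 for Ces2e. A match or its absence describes these letters alone.

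The control arrays were not alike, and this touched the results that follow. The SD over all probe sets of an array lay between 1.22 and 1.30 in the BENZ arrays, between 1.14 and 1.28 in CCO2, and was 1.30, 1.39, 1.08 and 1.09 in CCO3 replicates 1 to 4. CCO3 therefore fell into a pair of widely spread and a pair of narrowly spread arrays, replicates 3 and 4. The mean of each array was 0.00159 in BENZ, COUM and CCO2 but -0.002 in DBET and CCO3, so the deposited centring joined BENZ to CCO2 and not to CCO3. The array SD averaged 1.27 in BENZ against 1.22 over the 8 corn oil arrays, which pool the wide and narrow CCO3 pairs (two-sided exact permutation p = 0.434). The RNA integrity number was 8.48 ± 0.377 in BENZ and 8.45 ± 0.278 in corn oil (SD, exact permutation p = 0.923). The 3′ minus 5′ difference of the beta-actin control probe sets, a measure of RNA degradation, was 0.707 ± 0.0820 and 0.696 ± 0.0692 (exact permutation p = 0.830). No difference was found by these tests. The lung markers Sftpc, of alveolar type 2 cells, Ager, of type 1 cells, and Scgb1a1, of club cells, averaged 6.84, 6.75 and 6.44 in BENZ lungs, against 7.02, 6.81 and 6.70 in CCO2 and 6.74, 6.53 and 6.67 in CCO3.

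Dglucy read 0.49, 0.48, 0.66 and 0.57 in the 4 BENZ lungs. It read -0.11, 0.09, 0.01 and 0.13 in CCO2 and 0.13, 0.21, -0.05 and -0.07 in CCO3. Every BENZ lung lay above every corn oil lung. The log2 fold change was 0.51 ± 0.05 (SE), a fold of 1.42, with limma adjusted p of 9.39e-12 against CCO2 and 1.58e-10 against CCO3. The call held with each of the 12 arrays left out in turn (largest adjusted p 1.84e-07), and without CCO3 replicates 3 and 4 together the log2 fold change was 0.45 with an adjusted p of 0.00233.

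Ephx1 read 4.52, 4.49, 4.63 and 4.37 in the BENZ lungs. It read 3.46, 3.78, 3.79 and 3.99 in CCO2 and 4.16, 4.11, 3.00 and 3.21 in CCO3. The groups did not overlap, but CCO3 alone spread from 3.00 to 4.16. BENZ exceeded corn oil by a log2 fold change of 0.81 ± 0.13 (SE), a fold of 1.76, with limma adjusted p of 0.0109 against CCO2 and 1.51e-04 against CCO3.

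The narrow CCO3 pair carried the lowest Ephx1 values. Without that pair the log2 fold change of Ephx1 was 0.56 and the larger limma adjusted p was 0.433, so the call was lost. After quantile normalization, which gives every array of the batch 1 distribution, the BENZ lungs read 4.48, 4.34, 4.53 and 4.31, against 3.65, 3.79, 3.81 and 3.88 in CCO2 and 3.94, 3.75, 3.40 and 3.60 in CCO3. On that scale the log2 fold change was 0.69 ± 0.07 (SE) and the larger limma adjusted p was 3.09e-09. The difference was thus smaller, and the spread among the controls smaller still, once the arrays shared a distribution.

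Phlda3 read 2.64, 2.43, 2.37 and 2.23 in the BENZ lungs. It read 1.53, 1.81, 1.64 and 1.92 in CCO2 and 2.12, 1.95, 1.29 and 1.47 in CCO3. The groups did not overlap, with the lowest BENZ lung close above the highest CCO3 lung. On average BENZ lay higher by 0.70 ± 0.13 on the log2 scale (SE), a fold of 1.62, with limma adjusted p of 0.0283 against CCO2 and 0.00298 against CCO3. Without the narrow CCO3 pair it was 0.54 with a larger adjusted p of 0.432, and after quantile normalization 0.60 ± 0.11 (SE) with a larger adjusted p of 0.0295.

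Ces2e was a weak signal. It read -0.35, -0.28, -0.24 and -0.24 in the BENZ lungs. It read -0.65, -0.54, -0.55 and -0.61 in CCO2 and -0.67, -0.63, -0.58 and -0.61 in CCO3, below the median of all values, -0.386. The 8 corn oil lungs lay close together and every BENZ lung lay above them. The log2 fold change was 0.33 ± 0.06 (SE), a fold of 1.25, with limma adjusted p of 0.0467 against CCO2 and 0.00216 against CCO3. The first of these is near the threshold, and without the narrow CCO3 pair the log2 fold change was 0.34 with a larger adjusted p of 0.0518.

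**Figure D1:**
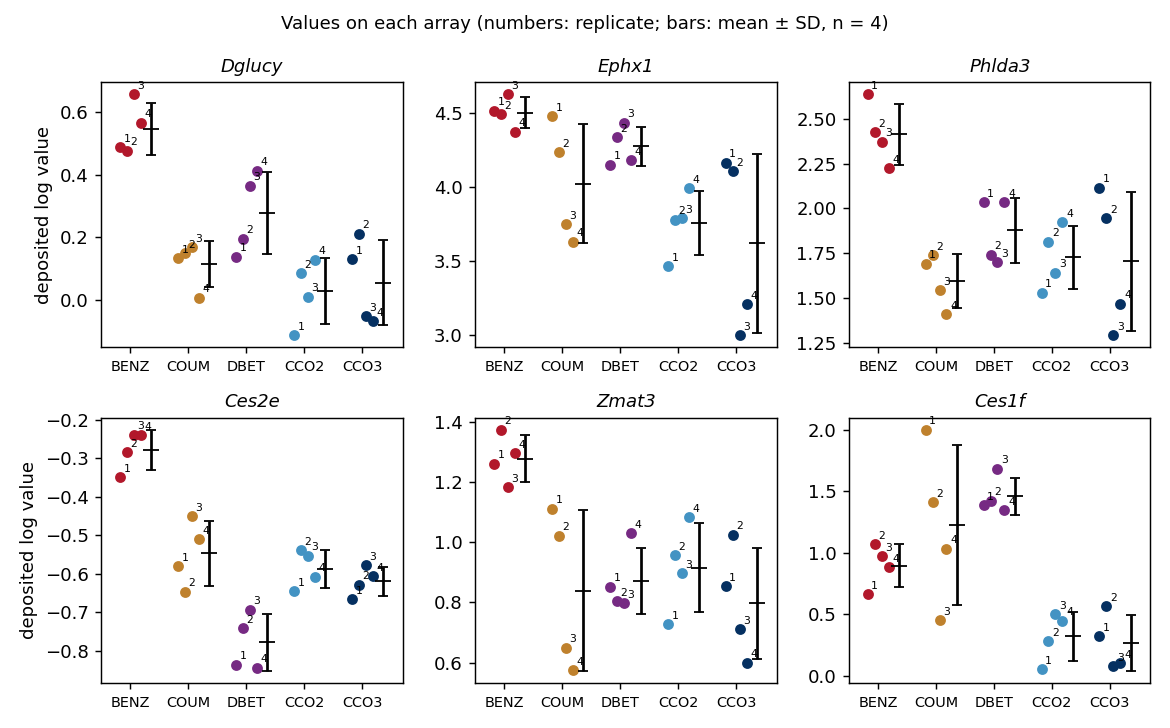
Deposited log values of 6 genes on each array of BENZ, COUM, DBET, CCO2 and CCO3, with the replicate number beside each point and the mean ± SD of the 4 arrays as a bar. The 4 BENZ arrays of each gene lie above all 8 corn oil arrays, and among the corn oil arrays CCO3 replicates 3 and 4 are the lowest for Ephx1 and Phlda3.

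Each of the 4 genes is measured by 1 probe set, so no second probe set could be set beside it. With each of the 12 arrays left out in turn, the call of Ephx1 held in 8 of 12 fits and was lost when BENZ mouse 1, 2 or 3 or CCO2 mouse 1 was dropped. Phlda3 stayed called in 4 of 12, and its call failed if any 1 of the first 3 BENZ mice, the first 3 CCO2 mice or the narrow CCO3 arrays was dropped. Ces2e stayed called in 4 of 12, and dropping any BENZ or CCO2 array ended its call. With the fit limited to arrays of the same batch code, the calls of Ephx1 and Phlda3 were lost (larger adjusted p 0.412 and 0.248) and those of Dglucy and Ces2e held. Over these fits the log2 fold change lay between 0.71 and 0.91 for Ephx1, between 0.62 and 0.77 for Phlda3 and between 0.31 and 0.35 for Ces2e. In a fit of the BENZ, CCO2 and CCO3 arrays alone, with fewer arrays to estimate the spread, 0 genes were called by limma, 305 were higher and 144 lower at an unadjusted p under 0.05, and the larger adjusted p of Dglucy was 0.593. The calls use a spread shared with the other groups of the series. Whether fewer arrays or a larger spread among these arrays ended the calls was not tested.

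**Figure D2:**
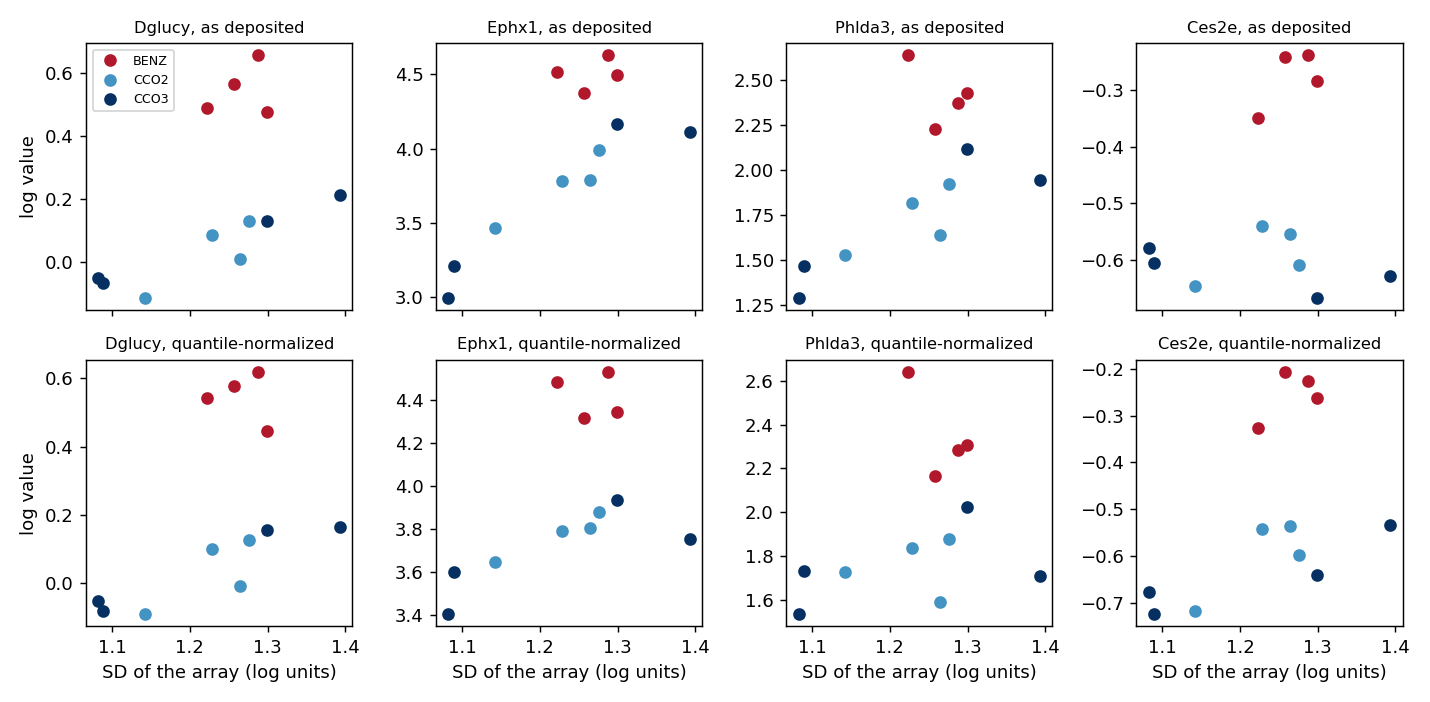
Log values of the 4 called genes on the 4 BENZ, 4 CCO2 and 4 CCO3 arrays (vertical axis) against the SD of all probe sets of the array (horizontal axis, log units), as deposited (upper row) and after quantile normalization (lower row). In both rows the BENZ arrays lie above corn oil arrays of like SD, and the 2 CCO3 arrays with the smallest SD have the lowest Ephx1 values.

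A wider view takes the mean of both sets at once. By limma adjusted p under 0.05 against that mean, 16 genes rose (0.118%) and 3 fell (0.0222%). Beside the 4 genes above, the risers were Ap5z1, Atp2b2, Ces1f, Dbp, Gli2, Il17re, Kcnh1, Marco, Ppp1r3f, Snap47, Tspan4 and Zmat3, and the genes that fell were Cd86, Gprin3 and Hepacam2. With a gene given by the mean of all its probe sets, Ap5z1, Gli2, Kcnh1 and Snap47 missed the threshold. Their limma adjusted p were 0.212, 0.0782, 0.0782 and 0.146. The other risers named here passed, Atp2b2 with a log2 fold change of 0.19. Counted with no test, 32 genes read higher on all 4 BENZ arrays than on all 8 corn oil arrays (0.237%) and 19 read lower (0.14%). After quantile normalization these counts were 91 and 19, and 36 of the 51 genes were shared. The 112 genes that passed against CCO3 alone stood beside 4 that passed against CCO2 alone, and between the 2 corn oil sets themselves limma called 4 genes in either direction (0.0296%). Without CCO3 replicates 3 and 4, only Dglucy was called against both sets, and 4 genes passed against the mean, Atp2b2 and Kcnh1 among them. Ap5z1, Cd86, Ces1f, Dbp, Gli2, Gprin3, Hepacam2, Il17re, Marco, Ppp1r3f, Snap47, Tspan4 and Zmat3 did not pass. In that fit the genes at an unadjusted p under 0.05 were 232 higher and 276 lower.

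Zmat3, a p53-induced gene for an RNA-binding zinc finger protein, read 1.26, 1.37, 1.18 and 1.30 in the BENZ lungs. It read 0.73, 0.96, 0.90 and 1.08 in CCO2 and 0.85, 1.02, 0.71 and 0.60 in CCO3. The groups did not overlap, and the log2 fold change was 0.42 ± 0.08 (SE), with a limma adjusted p of 0.00341 against the mean of both sets and of 0.383 against CCO2 alone. Without the narrow CCO3 pair it was 0.35 with an adjusted p of 0.171 against the mean.

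Marco, a scavenger receptor of alveolar macrophages, read 1.15, 1.25, 1.30 and 1.52 in the BENZ lungs. It read 0.52, 1.00, 0.83 and 0.65 in CCO2 and 0.87, 0.68, 0.90 and 0.46 in CCO3. Its difference from corn oil was 0.56 ± 0.12 on the log2 scale (SE) with a limma adjusted p of 0.00818 against the mean of both sets and 0.211 against CCO2. Marco was the 1 macrophage marker that passed the adjusted test, and the log2 fold changes of the 18 markers tested ran from -0.62 to 0.56. Their mean level ran from 2.20 to 2.63 in BENZ and from 2.26 to 2.67 in corn oil. Of these 18 markers 1 (5.56%) was higher and 0 lower at an unadjusted p under 0.05, beside 11.1% and 2.32% of all genes. Without the narrow CCO3 pair 1 was higher and 3 lower, beside 232 and 276 of all 13524 genes. In whole lung RNA, a change in the number of cells of a type and a change in RNA per cell cannot be told apart.

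Dbp, an output gene of the circadian clock, had the largest log2 fold change of all genes tested, 1.76 ± 0.36 (SE, limma adjusted p = 0.00550 against the mean of both sets). It read 2.12, 1.85, 1.82 and 0.81 in the BENZ lungs, against -0.38, -0.54, 1.35 and 0.82 in CCO2 and -0.11, -0.56, -1.33 and -0.16 in CCO3. The groups overlapped, and CCO2 spread over nearly the whole distance between BENZ and CCO3. Of 18 clock genes tested 5 (27.8%) were higher and 3 (16.7%) lower at an unadjusted p under 0.05, beside 11.1% and 2.32% of all genes. Tef and Hlf, transcription factors related to Dbp, had log2 fold changes of 0.46 ± 0.15 and 0.24 ± 0.10 (SE). Dbp was the member that passed the adjusted test.

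Among the genes that read higher without overlap, the 10 largest log2 fold changes were those of Ephx1, Phlda3, Tspan4, Ces1f, Marco, Dglucy, Cks1b (0.58), a subunit bound to cyclin-dependent kinases, Stmn2 (0.51), a microtubule-binding stathmin, Ces1g (0.51), a carboxylesterase, and Ninj1 (0.46), a membrane protein that ruptures the plasma membrane of dying cells. Tspan4, a tetraspanin, read 2.46, 2.17, 2.02 and 1.90 in BENZ, against 1.33, 1.56, 1.77 and 1.82 in CCO2 and 1.71, 1.82, 0.95 and 1.20 in CCO3. Its log2 fold change was 0.62 ± 0.14 (SE, limma adjusted p = 0.0306 against the mean of both sets), and BENZ replicate 4 was close to the highest corn oil lungs. Cks1b, Stmn2, Ces1g and Ninj1 missed the adjusted threshold, with limma adjusted p of 0.0862, 0.0711, 0.128 and 0.0775. The narrow CCO3 pair held both of the lowest readings of Tspan4, Cks1b, Ninj1 and Ces1g, and 1 of the lowest pair for Stmn2.

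Genes that read lower without overlap had smaller differences. Gprin3, which encodes a membrane protein that binds G protein subunits, read -0.65, -0.74, -0.72 and -0.84 in BENZ, against -0.31, -0.50, -0.45 and -0.45 in CCO2 and -0.22, 0.02, -0.10 and -0.28 in CCO3. It fell by 0.45 ± 0.11 on the log2 scale (SE, limma adjusted p = 0.0306 against the mean of both sets). Hepacam2, a cell adhesion molecule, fell by 0.26 ± 0.06 (adjusted p = 0.00818). Esm1, of endothelial cells, Amy1, an amylase, Cd207, a lectin of Langerhans-type dendritic cells, Col15a1, a basement membrane collagen, Fmnl1, Tbx21, the transcription factor T-bet, Rbp7 and Gnao1 had log2 fold changes between -0.42 and -0.18 and none passed the adjusted test. In BENZ lungs all of these genes but Rbp7 and Gnao1 averaged below the median of all values, -0.386.

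Benzene metabolism was represented by 30 tested genes of the 36 listed, and of these Ephx1 rose and 0 fell. Ephx1 was also the 1 member (3.33%) higher at an unadjusted p under 0.05, beside 11.1% of all genes, and the median log2 fold change of the list was 0.06 beside 0.04 for all genes. Cyp2e1 read 1.56, 2.16, 2.50 and 0.89 in BENZ lungs, against 1.61, 1.94, 2.45 and 2.34 in CCO2 and 1.48, 2.26, 1.04 and 1.04 in CCO3, and its log2 fold change was 0.01 ± 0.38 (SE). The mice within each group differed far more in Cyp2e1 than the groups did. Cyp2f2, the abundant club cell P450, had -0.02 ± 0.09, Nqo1 had 0.20 ± 0.10 (limma adjusted p = 0.381) and Mpo, the myeloperoxidase that oxidises phenolic metabolites in neutrophils, had 0.06 ± 0.08. The glutathione transferases Gstt1, Gstm2 and Gstp1 had 0.24 ± 0.14, 0.22 ± 0.13 and 0.20 ± 0.11, none past the adjusted test, and the sulfotransferase Sult1d1 had -0.38 ± 0.27 (SE). The soluble epoxide hydrolase Ephx2 had 0.04 ± 0.16.

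Of 36 listed p53 targets and DNA damage genes 31 were tested. Phlda3 rose against both sets, Zmat3 rose against their mean, and 0 fell. At an unadjusted p under 0.05, 7 members (22.6%) were higher and 1 (3.23%) was lower, beside 11.1% and 2.32% of all genes. The other 5 higher members were Aen (0.30), a nuclease of p53-induced apoptosis, Ei24 (0.37), Xpc (0.24), which detects DNA lesions for nucleotide excision repair, Ppm1d (0.20), a phosphatase that switches p53 signalling off, and Sulf2 (0.29), and the lower one was the death receptor gene Fas (-0.23). Aen came closest to the adjusted threshold, with a limma adjusted p of 0.0865.

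The p53 targets most often measured did not pass the test. Cdkn1a, which encodes the cell cycle inhibitor p21, read 2.89, 2.48, 2.70 and 2.68 in BENZ, against 2.58, 3.27, 1.65 and 2.38 in CCO2 and 3.12, 2.89, 2.70 and 2.16 in CCO3. Its log2 fold change was 0.09 ± 0.22 (SE). Mdm2, the ubiquitin ligase that degrades p53, had -0.09 ± 0.10 and Ccng1, a cyclin induced by p53, 0.25 ± 0.18, while Bbc3 and Pmaip1, which encode death proteins, had 0.02 ± 0.08 and -0.19 ± 0.13. The median over the 31 genes was 0.07, and without the narrow CCO3 pair it was 0.03. In that fit 5 members were higher and 2 lower at an unadjusted p under 0.05, beside 232 and 276 of all 13524 genes.

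Of 19 listed carboxylesterases 12 were tested. Like the other lists, this one was chosen with earlier results of these data known. Its counts describe the members and do not test the family. Ces2e rose against both sets and Ces1f rose against their mean, and 3 members, Ces1f, Ces1g and Ces2e, read higher on every BENZ array than on every corn oil array, beside 0.237% of all genes. Ces1f read 0.66, 1.07, 0.97 and 0.88 in BENZ, against 0.05, 0.28, 0.50 and 0.45 in CCO2 and 0.32, 0.56, 0.08 and 0.10 in CCO3. Its log2 fold change was 0.60 ± 0.14 (SE, limma adjusted p = 0.0179 against the mean of both sets). Ces1g read 0.08, 0.04, 0.15 and 0.13 in BENZ, against -0.43, -0.43, -0.25 and -0.42 in CCO2 and -0.44, -0.21, -0.53 and -0.53 in CCO3, a log2 fold change of 0.51 ± 0.14 (SE) that missed the adjusted test. When the narrow CCO3 pair was left out, the call of Ces1f was lost (log2 fold change 0.51, adjusted p = 0.308). After quantile normalization, every COUM and DBET lung also read above every corn oil lung for Ces1f and Ces1g. The rises of Ces1f and Ces1g were thus not particular to benzene.

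None of the other tested carboxylesterases passed the test. Ces1d had a log2 fold change of 0.15 ± 0.11, Ces1e had -0.01 ± 0.08 and Ces1c had -0.31 ± 0.24 (SE). The median of the 12 was 0.01. Carboxylesterase genes are close copies of each other, and how far each probe set separates them was not tested.

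Of 27 tested NRF2 and glutathione genes 1, Ephx1, rose, and 6 (22.2%) were higher and 0 lower at an unadjusted p under 0.05, beside 11.1% and 2.32% of all genes. Without the narrow CCO3 pair 1 was higher and 1 lower, beside 232 and 276 of all 13524 genes. The glutathione synthesis genes Gclc and Gclm had log2 fold changes of 0.05 ± 0.16 and 0.02 ± 0.08 (SE). Of 10 tested genes of D-amino acid and glutamate metabolism, Dglucy rose, and Ddo, which oxidises D-aspartate, and Srr, which makes D-serine, had -0.15 ± 0.10 and 0.05 ± 0.07. No gene of the lists for DNA repair (29 tested), AhR targets (7), apoptosis (21), interferon response (20) or heat shock (14) passed the adjusted test, and their medians lay between -0.21 and 0.01.

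**Figure D3:**
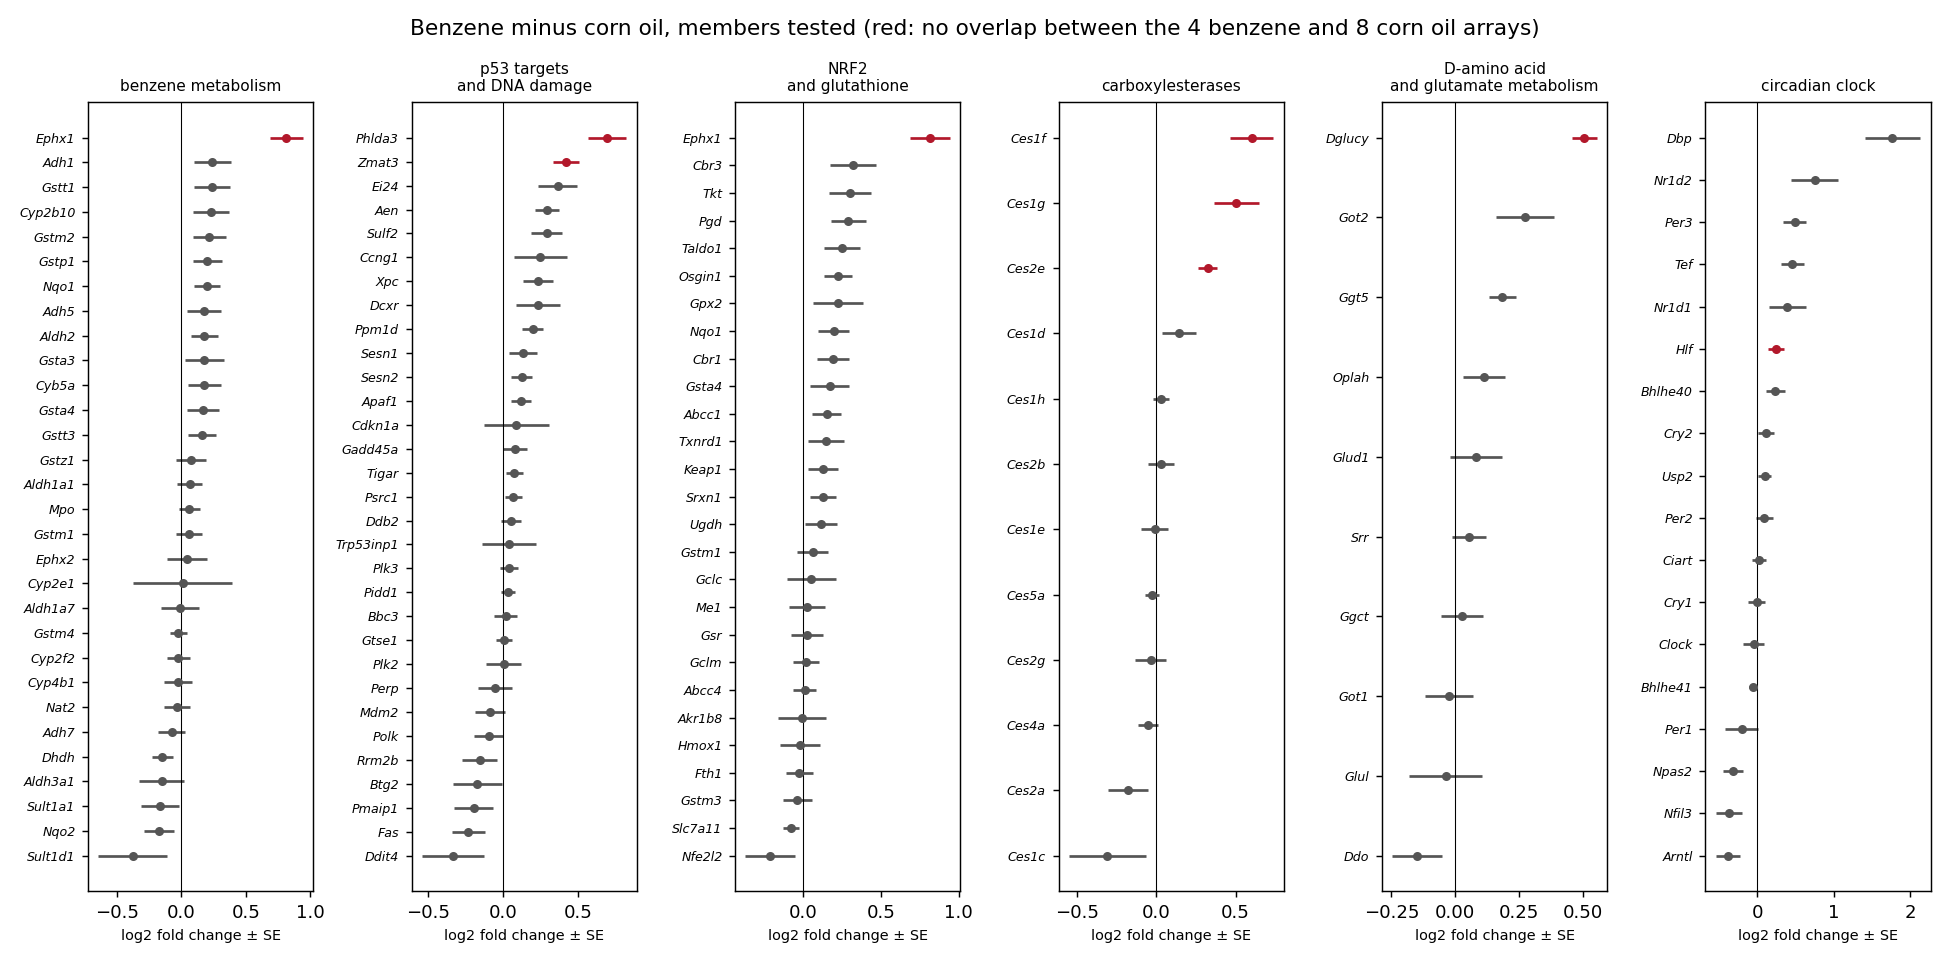
Log2 fold change ± SE of BENZ against corn oil for every tested member of 6 gene lists, 1 panel per list, with genes in order of their value and red for those whose 4 BENZ arrays do not overlap the 8 corn oil arrays. Most members of each list lie near 0, and Ephx1, Phlda3, Zmat3, Ces1f, Ces1g, Ces2e, Dglucy and Hlf are red.

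Dglucy set benzene apart from the other exposures of the series more than the other called genes did. For each of 34 exposed groups, the log2 fold change was taken against the controls of its own vehicle and batch code. The groups differ in vehicle (corn oil, water, chow or air), dose and days of exposure per week. The ranks therefore do not compare like exposures. Those of benzene, coumarin and 1,2-dibromoethane share their control arrays. The log2 fold change of Dglucy was 0.51 ± 0.05 in BENZ and next 0.24 ± 0.05 in DBET, 0.23 ± 0.05 in mice given 1,2,3-trichloropropane and 0.22 ± 0.07 in mice given 1,5-naphthalenediamine (SE). The difference from benzene was tested for the other 33 groups, a test added after the data were seen, with adjusted p taken over all genes within each contrast. Benzene lay above the other group at an adjusted p under 0.05 in 31 of 33 contrasts for Dglucy, beside 3.4% of all gene and contrast pairs. The 2 groups not separated were 1,5-naphthalenediamine (adjusted p = 0.0818) and iodoform (adjusted p = 0.0661). The 4 called genes were chosen by the same BENZ difference from corn oil that enters every contrast. Their counts of contrasts are therefore partly set by that choice, while the 3.4% is over all genes. Over the 58 control arrays of the series Dglucy ran from -0.11 to 0.25, below the lowest BENZ lung. That was not particular to Dglucy. The highest control array and the lowest BENZ lung read 4.16 and 4.37 for Ephx1, 2.12 and 2.23 for Phlda3, and -0.38 and -0.35 for Ces2e.

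Ephx1 also had its largest log2 fold change in BENZ, but with close neighbours. It was 0.81 ± 0.13 in BENZ, 0.77 ± 0.17 for 1,5-naphthalenediamine, 0.67 ± 0.17 for 2,3-benzofuran and 0.59 ± 0.13 for 1,2-dibromoethane (SE), and their differences from benzene had limma adjusted p of 0.982, 0.924 and 0.273. At a limma adjusted p under 0.05, the rule for each count of contrasts here, benzene lay above in 14 of 33 contrasts. Phlda3 was 0.70 ± 0.13 in BENZ, 0.64 ± 0.15 for iodoform and 0.44 ± 0.15 for 2,2-bis(bromomethyl)-1,3-propanediol, and benzene lay above in 18 of 33 contrasts. Ces2e was highest for 1-amino-2,4-dibromoanthraquinone, 0.39 ± 0.07, with BENZ at 0.33 ± 0.06, and benzene lay above in 21 of 33 contrasts. By the same rule benzene lay below the other group in 0 contrasts for these 4 genes.

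1,4-Dichlorobenzene, benzene with a chlorine at opposite ring positions, was given at 600 mg/kg in corn oil in arrays of another batch code, so dose and batch code differ. Its log2 fold changes were -0.02 ± 0.05 for Dglucy, 0.45 ± 0.12 for Ephx1, -0.31 ± 0.12 for Phlda3 and 0.06 ± 0.06 for Ces2e (SE). The values for BENZ were 0.51, 0.81, 0.70 and 0.33.

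**Figure D4:**
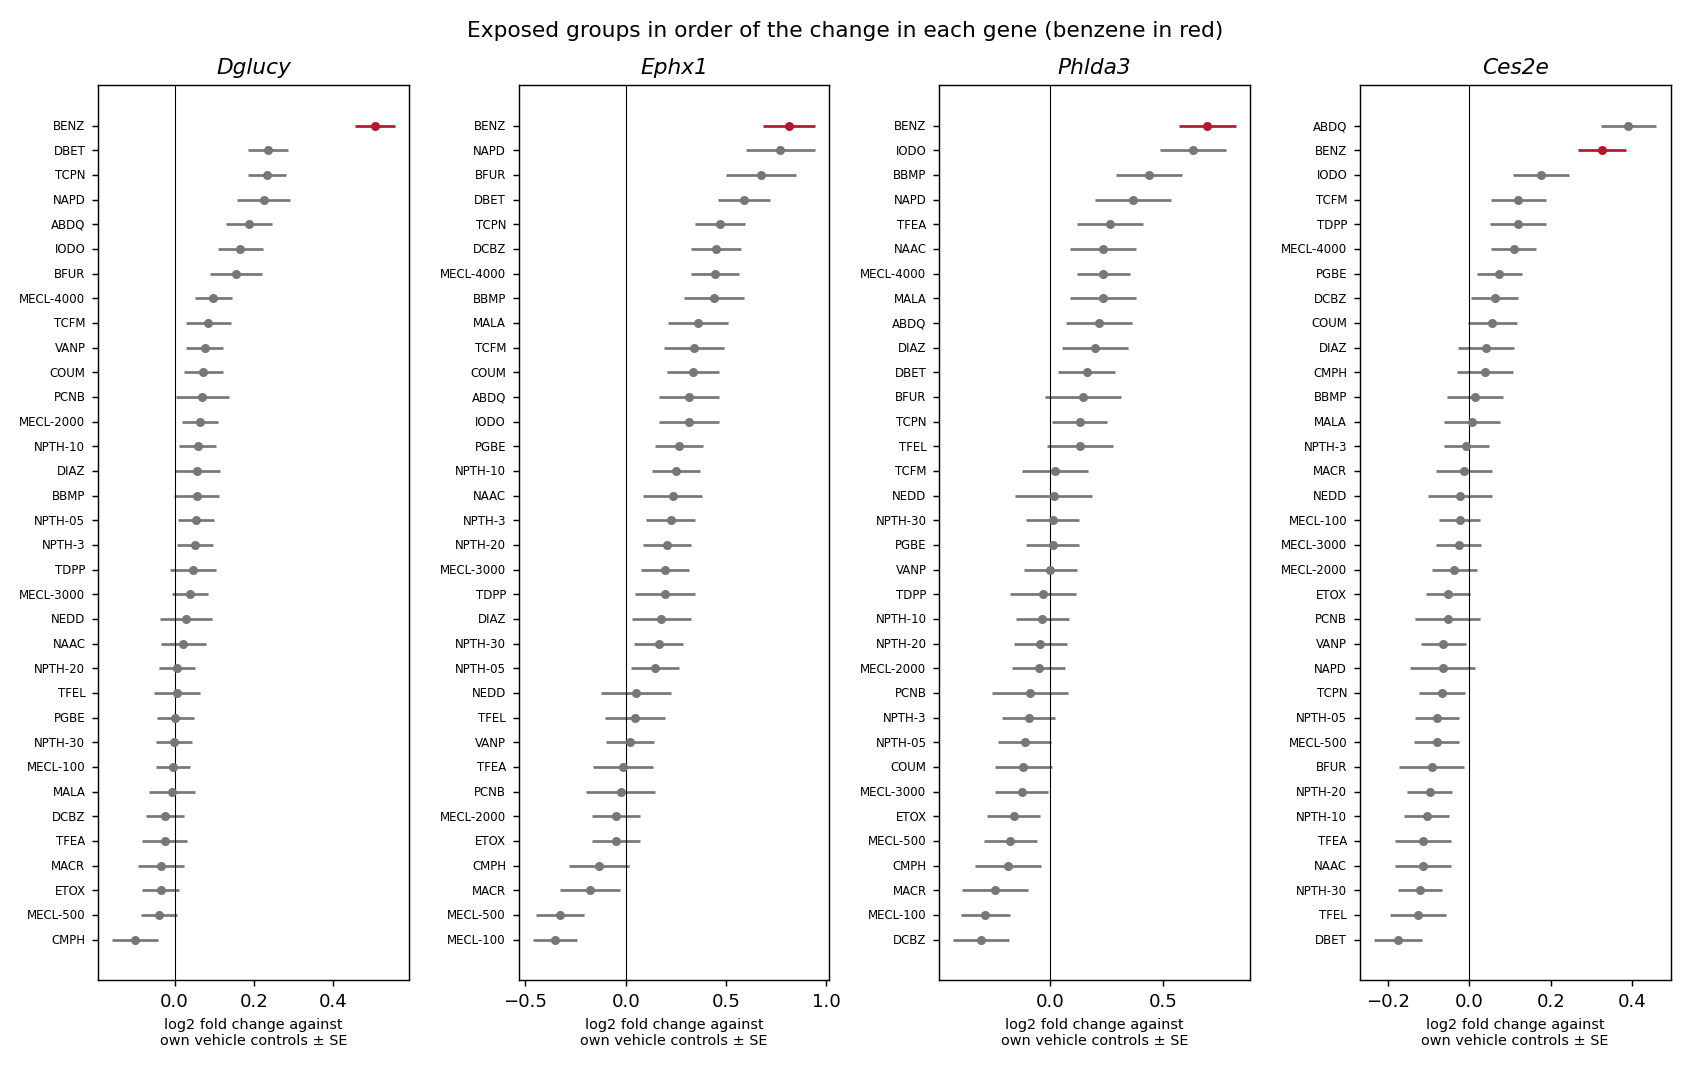
Log2 fold change ± SE of Dglucy, Ephx1, Phlda3 and Ces2e (horizontal axis) in the 34 exposed groups (rows, by the labels' codes), each against the controls of its own vehicle and batch code and ordered from the highest, with BENZ in red. BENZ stands first for Dglucy, Ephx1 and Phlda3 and second for Ces2e, and its gap to the next group is widest for Dglucy.

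Set directly against coumarin, given at another dose with the same vehicle and batch code, 2522 genes were higher (18.6%) and 1292 lower (9.55%) in BENZ by limma adjusted p. After quantile normalization these counts were 617 and 1359, so the balance of directions turned with the scaling, and 1 array could move the total of 3814, to 5801 without COUM replicate 1, 759 without COUM replicate 3, 415 without COUM replicate 4, 1979 without BENZ replicate 2 and 2060 without BENZ replicate 3. COUM replicates 3 and 4 had array SDs of 1.05 and 1.01, below those of all BENZ arrays. Dglucy read 0.13, 0.15, 0.17 and 0.01 in COUM and differed by 0.43 ± 0.06 (BENZ minus COUM, SE, adjusted p = 6.01e-09). Phlda3 read 1.69, 1.74, 1.54 and 1.41 in COUM, a difference of 0.82 ± 0.15 (adjusted p = 4.46e-05). Ephx1 read 4.48, 4.24, 3.75 and 3.63 in COUM, overlapping BENZ, with a difference of 0.48 ± 0.15 (adjusted p = 0.0142). Its 2 low values were those of the narrow COUM arrays. After quantile normalization Ephx1 read 4.31, 4.18, 4.08 and 4.19 in COUM, against 4.48, 4.34, 4.53 and 4.31 in BENZ. The difference was thus smaller on that scale. Ces2e differed by 0.27 ± 0.07 as deposited (adjusted p = 0.00380).

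Ces1g and Ces1f ran the other way against coumarin. Ces1g read 2.72, 1.48, 1.90 and 1.21 in COUM lungs, far above the 4 BENZ lungs, with a difference of -1.72 ± 0.17 (BENZ minus COUM, SE, limma adjusted p = 1.27e-15). Ces1f differed by -0.33 ± 0.16 with a limma adjusted p of 0.0963, and its 95% interval ran from -0.63 to -0.02.

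Against 1,2-dibromoethane 1209 genes were higher (8.94%) and 1574 lower (11.6%) in BENZ, and after quantile normalization 2558 were higher and 1697 lower. DBET replicate 1 had a beta-actin 3′ minus 5′ difference of 1.55, beside 0.705 to 0.763 in the other DBET lungs, and without it 2141 of the genes tested were called, beside 2783 with it. Without BENZ replicate 1 there were 1101. Dglucy read 0.14, 0.20, 0.37 and 0.41 in DBET, below every BENZ lung and overlapping corn oil, and differed by 0.27 ± 0.06 (BENZ minus DBET, SE, limma adjusted p = 4.14e-04). Phlda3 differed by 0.54 ± 0.15 (adjusted p = 0.00573). Ces2e read -0.84, -0.74, -0.69 and -0.84 in DBET, below corn oil, and differed by 0.50 ± 0.07 (adjusted p = 4.56e-08). Ephx1 read 4.15, 4.34, 4.43 and 4.18 in DBET, and its difference of 0.23 ± 0.15 missed the threshold (adjusted p = 0.273), with a 95% interval from -0.07 to 0.52. After quantile normalization Ces1f read 1.31, 1.36, 1.66 and 1.27 in DBET, above all BENZ lungs at 0.70, 0.99, 0.92 and 0.87. On that scale Ces1g read 0.02, 0.50, 1.13 and 0.42 in DBET, against 0.13, 0.04, 0.14 and 0.16 in BENZ.

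The genes most like each called gene were taken by Pearson correlation of deviations from the group mean over all arrays, given as a description because arrays share scale and batch. For Dglucy they were Cmc2 (r = 0.73), Pycard, Rfc2, Txnrd2 and Ebpl (0.70), and after quantile normalization these correlations lay between 0.66 and 0.71. For Ephx1 they were Tmem176b (0.93), Sdf4, Dap3, Elp5 and Rtcb (0.92), which dropped to between 0.60 and 0.76 once arrays shared a distribution. For Phlda3 they were AI837181 (0.82), Tysnd1, Pwwp2b, Mgat1 and Repin1 (0.81), and for Ces2e Pipox (0.60), Upb1, Agmat, C4bp and Gldc (0.55).

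Markers of other cells varied more between mice than between groups. BENZ replicate 4 stood apart in neutrophil markers, whose mean level over 13 tested genes was 2.42 in that lung beside 0.43, 0.80 and 0.85 in the other BENZ lungs and 0.41 to 1.29 in corn oil. S100a8, a calcium-binding protein abundant in neutrophils, read 2.36, 3.24, 3.52 and 5.68 in BENZ, against 1.62, 3.86, 4.15 and 3.88 in CCO2 and 2.58, 3.37, 3.09 and 3.44 in CCO3. The neutrophil list had 3 members (23.1%) higher at an unadjusted p under 0.05, beside 11.1% of all genes, and 0 without BENZ replicate 4, beside 2021 of all 13524 genes. That lung had the lowest Ephx1 and Phlda3 values of the BENZ lungs but not the lowest of Dglucy or Ces2e, and the part of neutrophils in any result was not tested. Without BENZ replicate 4, 214 genes read higher and 52 lower without overlap, beside 32 and 19 with it.

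BENZ replicates 1 and 4 were also the lowest of these 12 arrays for cardiac muscle and adipose markers. Cardiac muscle markers, from the muscle sleeve of pulmonary veins, averaged 0.18, 0.93, 1.00 and -0.18 in BENZ, and 0.33 to 1.36 in corn oil. Adipose markers ran from -0.23 to 1.07 in BENZ and from 0.32 to 1.06 in corn oil, and the part of these tissues in any result was not tested. Of 19 ciliated cell markers 4 were lower and 0 higher at an unadjusted p under 0.05 (21.1%, beside 2.32% of all genes lower), with a median of -0.13, and none passed the adjusted test. Dnah11, a dynein of the ciliary arm, read 0.07, 0.15, 0.13 and 0.18 in BENZ, against 0.40, 0.34, 0.31 and 0.26 in CCO2 and 0.26, 0.23, 0.33 and 0.30 in CCO3, with no overlap. Of 18 T and NK cell markers 5 were lower and 0 higher by the same measure (27.8%), with a median of -0.07, and none passed the adjusted test.

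The airway genes Scgb3a1 and Bpifa1 differed widely between mice. Scgb3a1, a secretoglobin of the large airways, read 0.02, 4.55, 3.12 and 0.28 in BENZ, against 4.63, 4.66, 3.28 and 4.64 in CCO2 and 3.60, 2.63, 5.94 and 2.19 in CCO3. BENZ replicates 1 and 4 were near 0 and replicates 2 and 3 within the corn oil range. Its log2 fold change was -1.95 ± 0.69 (SE, limma adjusted p = 0.214). Bpifa1, an airway surface protein named after its values were seen, had the lowest log2 fold change of all genes tested, -2.46 ± 0.88 (SE, adjusted p = 0.225), with BENZ replicates 1 and 4 again the lowest of the BENZ lungs. Scgb1a1 had -0.25 ± 0.09 and Scgb3a2 -0.10 ± 0.11.

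**Figure D5:**
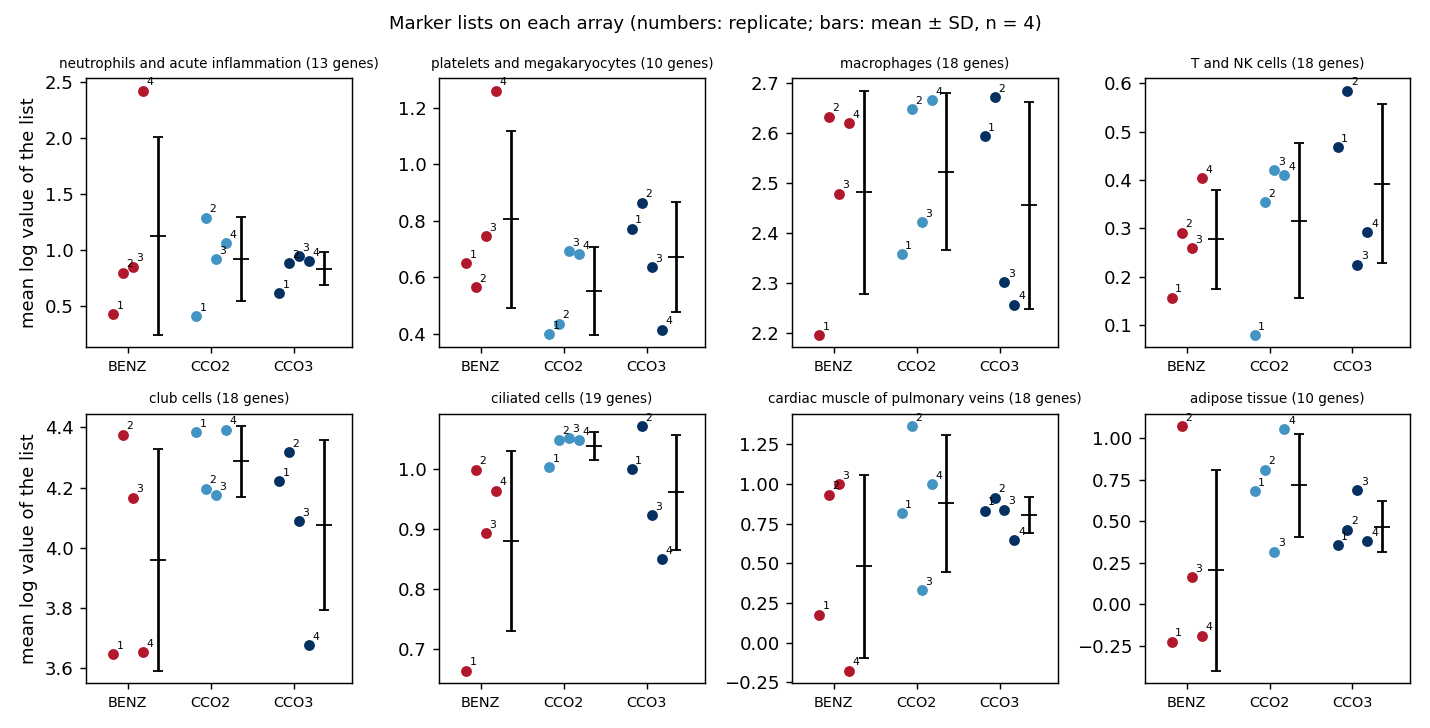
Mean log value of 8 cell marker lists on each BENZ, CCO2 and CCO3 array, with the replicate number beside each point and the mean ± SD of the 4 arrays as a bar. BENZ replicate 4 is the highest array for neutrophil markers at 2.42, and the groups overlap in every panel.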

How the data were processed

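Total RNA of lung (RNAlater, Trizol, RNeasy) was measured on Affymetrix Mouse 430_2 arrays, per the labels. The authors deposited log-scale values, treated here as log2. The base, background correction and normalization are not given in the sources used here. Array means lie between -0.00269 and 0.00334. Of 45101 probe sets 34958 carry 1 gene symbol, 932 several and 9211 none. A gene was given by its probe set of highest mean (18194 genes) and tested where at least 3 arrays exceeded the median of all values (13524 genes). Deposited log2 values of all arrays (133 exposed, 58 control) were fitted with group means in limma 3.58.1 (R 4.3.3), as contrasts of BENZ against CCO2, CCO3 and their equal-weight mean. P-values were adjusted by Benjamini-Hochberg over all genes tested. P-values for RNA quality are from two-sided exact permutation tests. The number of arrays limits the precision.

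Named genes were those called by either rule, Dglucy, Ephx1 and Phlda3, the 10 largest rises and 10 largest falls without overlap among named symbols, any tested member of the metabolism and p53 lists, and of other lists the first 3 members and those without overlap, with the 5 genes most like each called gene. The members and the 34 gene lists were chosen with earlier results of these data known. Array 4 of BENZ and arrays 3 and 4 of CCO3 were singled out after seeing the data. Alternatives were quantile normalization, no filter, other probe set rules, fewer arrays in the fit, a beta-actin covariate, robust moderation, other uses of the control sets and each array left out. In simulated data of 13524 genes in the benzene layout, 66 of 100 genes shifted by 0.5 and 96 of 100 shifted by 1 were called, with 1 false call. Promoter windows are from RefSeq on GRCm38.p6.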

Additional observations from a re-analysis of the deposited data

Results flagged for a closer look

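In direct contrasts with COUM and DBET on the deposited values, the called genes differed past the limma threshold except Ephx1 against DBET (0.23, adjusted p = 0.273). The Ephx1 difference from COUM was smaller after quantile normalization. The BENZ minus COUM difference was 0.43 for Dglucy, 0.48 for Ephx1, 0.82 for Phlda3 and 0.27 for Ces2e, and the BENZ minus DBET difference was 0.27 for Dglucy, 0.54 for Phlda3 and 0.50 for Ces2e. Among 66 sets of 4 values examined, 5 had 1 array far from the others, and chance gives about 1 in 20. These were Atp2b2 in BENZ replicate 4 (-0.26) and in CCO3 replicate 4 (-0.45), Cd86 in BENZ replicate 4 (-0.45), the beta-actin 3′ minus 5′ difference in BENZ replicate 3 (0.829) and Snap47 in CCO2 replicate 1 (1.89).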

How the results depend on the processing

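Dglucy was the 1 gene whose call against both sets held with each array left out. No paired analysis was possible because the labels give no replicate numbers that join mice across groups. With 1 array left out, the calls against both sets ran from 1 to 4, genes without overlap from 53 to 266, calls against COUM from 415 to 5801, calls against DBET from 1101 to 3342 and calls between the corn oil sets from 0 to 22. As a share of the genes tested, the calls against the mean ran from 0.0518% to 1.41% with 1 array left out, beside 0.14% with all arrays. That share was 0.0518% (7 genes) without BENZ replicate 2, 0.0813% without CCO2 replicate 1, 0.0739% and 0.0665% without CCO3 replicates 3 and 4, 0.458% without BENZ replicate 4, 0.325% without CCO2 replicate 4, and 1.41% and 1.21% without CCO3 replicates 1 and 2. The beta-actin difference between BENZ and corn oil ran from -0.0297 to 0.0304 with 1 array left out. Calls against both sets numbered 0 from the arrays of the comparison alone, 2 from arrays of the same title code, 22 with both sets joined, 112 against CCO3 alone and 1 without CCO3 replicates 3 and 4. The share against the mean was 0.562% after quantile normalization, 0.104% over all probe sets, 0% from the arrays alone, 0.0444% from the same title code, 0.547% with arrays brought to 1 SD, 0.0296% without CCO3 replicates 3 and 4, and 24.3% without CCO3 replicates 1 and 2, the last 3 settings added after seeing the data. Genes without overlap numbered 110 after quantile normalization, 100 with arrays brought to 1 SD and 421 without CCO3 replicates 1 and 2. Calls against COUM numbered 1976 after quantile normalization, 6067 with no filter, 11913 over all probe sets, 10 from the arrays alone and 1953 from the same title code. Calls against DBET numbered 4255 after quantile normalization, 6241 over all probe sets, 1667 from the arrays alone and 1790 with the beta-actin covariate. Calls between the corn oil sets numbered 69 after quantile normalization, 0 over all probe sets and 0 from the arrays alone. Probe sets outnumber genes, and the arrays alone leave fewer samples to estimate the spread. The cause of a changed count was not tested for any setting. No log2 fold change of the 19 genes called by either rule changed sign under any setting run.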
